A study of Mus musculus with 98 samples.

Results

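Per1, Per2, Per3, Cry1 and Cry2 encode the period and cryptochrome proteins, the repressor arm of the mammalian circadian clock. They were taken by symbol from the mouse rows of both count tables, which gave 5 genes of 20757 mouse genes in all, each with 1 row in each table and each above the filter on low counts in all 4 tissues. The animals were ten-week-old male FRGN mice, an immunodeficient strain without functional Fah, Rag2 and Il2rg on a non-obese diabetic background. Their livers had been repopulated through the spleen with human hepatocytes (the Hu arm) or with murine hepatocytes (the Mu arm, the control). Mice of both arms carried the same deletions and received cycles of nitisinone, a drug that protects liver cells lacking Fah, with sulfamethoxazole and trimethoprim as antibiotics and dextrose in the water. Mice of the Hu arm had been chosen for a high degree of repopulation. The tissues were liver, skeletal muscle and 2 regions of the hypothalamus, the suprachiasmatic nucleus (SCN), seat of the central clock, and the arcuate nucleus (ARC), which regulates feeding. They were collected at 6 zeitgeber times (ZT, counted in hours from lights on), namely ZT 2, 6, 10, 14, 18 and 22. The 98 libraries comprised 27 of liver and 27 of muscle, each 15 Hu and 12 Mu, and 22 of ARC and 22 of SCN, each 10 Hu and 12 Mu. A group of 1 arm and time held 1 to 3 libraries. The labels used do not tie libraries to single mice, so the p-values measure the spread between these libraries.

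PER and CRY proteins enter the nucleus together and block the activator pair of CLOCK and BMAL1, which switches on the genes of both families. BMAL1 is encoded by Arntl. The repressors are then marked by kinases and degraded by ubiquitin ligases, which lets the next cycle begin. REV-ERB alpha, encoded by Nr1d1, represses Arntl and also Cry1, which is one reason why Cry1 RNA peaks later than Per RNA in many tissues. In the SCN the cycle is set by light, and in liver and muscle it is also set by feeding, temperature and hormones, to which Per1 and Per2 respond directly.

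The sequence just before the transcription start is shown for the members with a promoter entry. Such sequence can carry short elements through which activators of the clock and of its inputs reach a gene. RefSeq promoters on GRCm38.p6 covered 4 of the 5 genes, with 2 starts for Per1 and none for Per2. Per1 lies on chromosome 11 (69095217 to 69109960, plus strand), and on the minus strand Per2 lies on chromosome 1 (91415982 to 91459324), Per3 on chromosome 4 (151003652 to 151044665), Cry1 on chromosome 10 (85131700 to 85185064) and Cry2 on chromosome 2 (92403646 to 92434043), all on GRCm38 by GENCODE. Windows are written 5′ to 3′ on the strand of the gene and stop at least 20 bases before the start. Capitals mark the E-box CACGTG, the E-prime box CACGTT, the element TGACG, a part of the cAMP response element, or the core TTATGTA of the D-box, on either strand. The 5 windows, given with chromosome, first and last base and strand, were as follows.
Per1 first start, chr11:69098699-69098813, plus strand: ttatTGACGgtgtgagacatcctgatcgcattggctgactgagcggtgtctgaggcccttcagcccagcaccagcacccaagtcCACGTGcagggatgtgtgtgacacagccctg
Per1 second start, chr11:69099995-69100049, plus strand: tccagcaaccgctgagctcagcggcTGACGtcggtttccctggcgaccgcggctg
Per3, chr4:151044792-151044895, minus strand: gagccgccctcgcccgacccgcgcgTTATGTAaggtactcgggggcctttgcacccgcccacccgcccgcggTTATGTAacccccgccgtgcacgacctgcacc
Cry1, chr10:85185084-85185158, minus strand: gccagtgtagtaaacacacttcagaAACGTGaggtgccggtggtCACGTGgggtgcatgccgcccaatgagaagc
Cry2, chr2:92434205-92434303, minus strand: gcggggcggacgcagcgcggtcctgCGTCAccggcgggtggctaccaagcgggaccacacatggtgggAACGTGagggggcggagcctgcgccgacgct

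Both Per1 windows lie within the span of longer annotated Per1 transcripts and in none of their exons. The Per3 window lies within the span of a Camta1 transcript, in no exon. Counted from the start, with negative positions before it, the E-box of Cry1 lay at -60 to -55 and an E-prime box on the other strand at -79 to -74, where the window shows AACGTG. Cry1 also held TGACG at -8 to -4, past the end of the window shown. In Per1 the E-box lay at -166 to -161 from the first start. Per3 held the D-box core at -205 to -199 and again at -158 to -152. Cry2 held an E-prime box on the other strand at -166 to -161 and no E-box. Among 32851 promoters that reach from 250 bases before to 50 bases after a start, the E-box was present in 7.15%, the E-prime box in 4.68%, TGACG in 20.8% and the D-box core in 2.63%. The element AGGTCA of ROR and REV-ERB factors, present in 16.3% of promoters, was found on the other strand at -137 to -132 from the first Per1 start and in no other member. The D-box core was added to the search after the sequences had been seen. A match is a run of letters, and no binding was measured here.

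The libraries and tissues were checked first. Mouse counts, in M (mega), ranged from 7.70 to 87.9 M in Hu livers, from 97.1 to 118 M in Mu livers, and from 23.7 to 92.1 M in the other tissues. In Hu livers 15.9 to 93.1% of all counts lay in human rows, which were not used for the members. The Hu liver at ZT 18, replicate 3, stood apart, with 7.70 M mouse counts, and the summed level of 4 hepatocyte markers (Alb, Ttr, Apoa1 and Serpina1c) was 13244 CPM (mouse counts scaled to a common library size) there, against 48213 CPM or more in the other Hu livers. Muscle libraries held its defining markers at 62083 CPM or more. ARC markers separated the brain regions, with medians of 145 CPM in Mu ARC and 31.1 CPM in Mu SCN for the summed level of Agrp, Npy, Pomc, Cartpt and Ghrh. The 7 SCN markers did not mark the SCN libraries, since their sum had a median of 115 CPM in Mu SCN and 269 CPM in Mu ARC. Vip, a defining neuropeptide of the SCN, had a median of 3.80 CPM in Mu SCN and 4.28 CPM in Mu ARC. None of these markers was at 0 in all brain libraries of an arm. SCN is therefore used below as the name on the label.

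The first question was whether the repressors cycled in each tissue and arm. A cosine of 24 h was fitted to each arm, which gives a peak time and an amplitude, the distance from mean to peak on the log2 scale. Tests are edgeR's quasi-likelihood F tests, with p adjusted over all genes by Benjamini-Hochberg. In Mu livers Per1, Per2, Per3 and Cry1 were rhythmic at an adjusted p under 0.05, and Cry2 was not, so that 4 of 5 passed where 17.3% of 14977 genes did. In Hu livers Per2, Per3 and Cry1 were rhythmic, 3 of 5, against 0.167% of all genes. Left-out time points, here and below, were chosen after seeing the data. In Hu liver Per2 had an adjusted p of 0.0582 without ZT 2, Cry1 of 0.195 without ZT 6, and Per3 of 0.210, 0.103 and 0.0566 without ZT 2, 10 and 14. With time as a factor in place of the cosine, that of Cry1 was 0.0882. In muscle all 5 were rhythmic in Mu, against 5.31% of 14197 genes, and all 5 in Hu, against 7.78%. In ARC none of the 5 was rhythmic in Mu (1.41% of all genes) or in Hu (0.0995%), and in SCN none in Mu (0.207%) or in Hu (0.00666%).

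**Figure D1:**
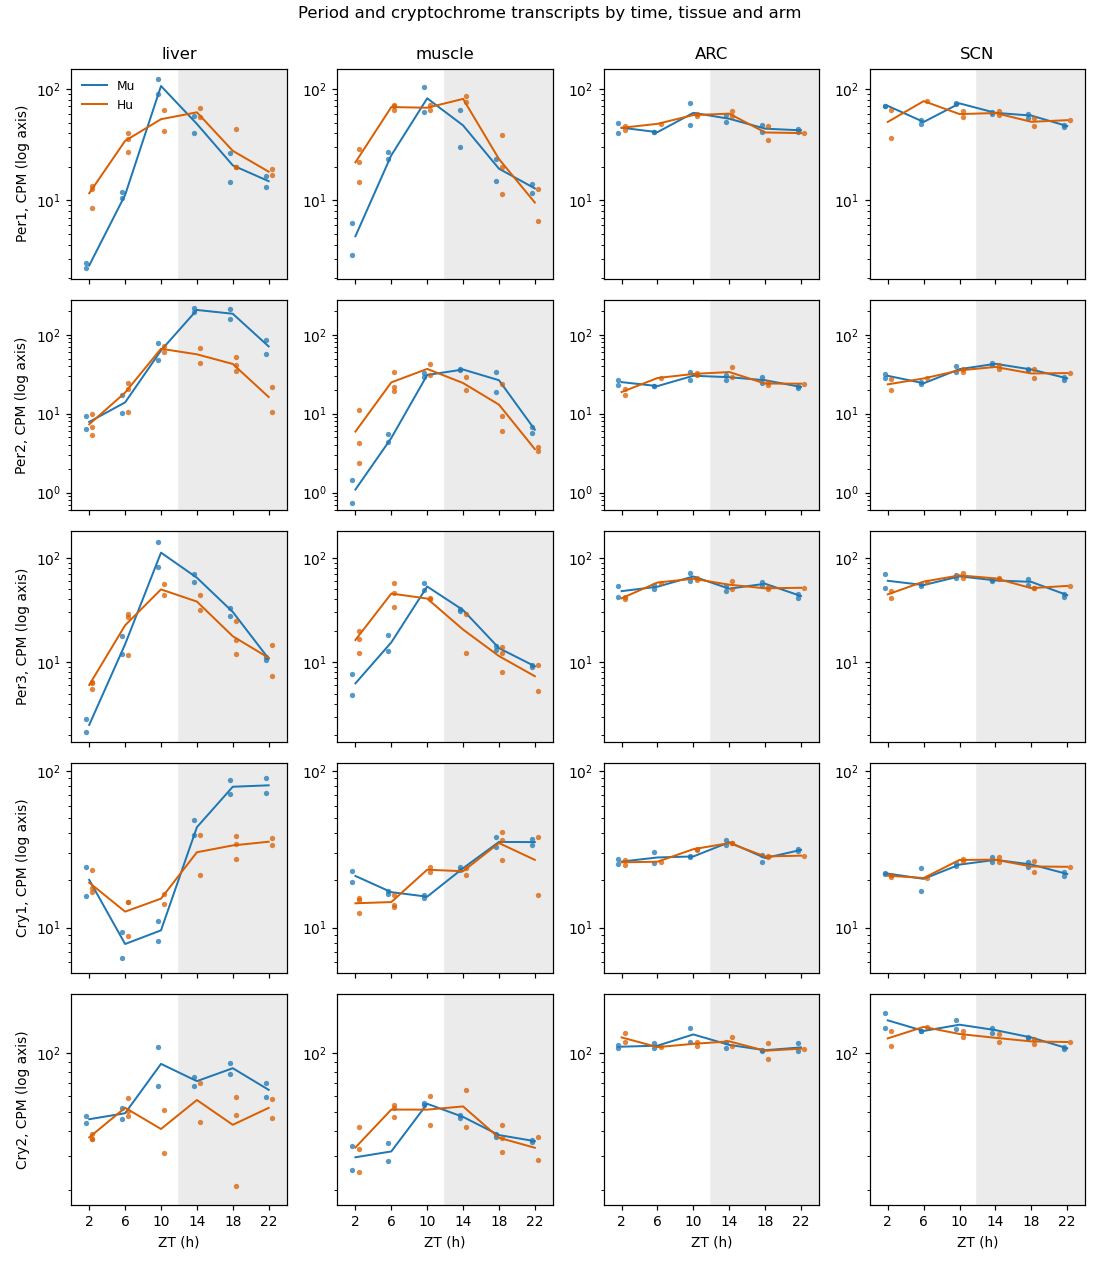
Level of the 5 genes (rows) in CPM on a log axis against ZT in hours, in each tissue (columns), for Mu (blue) and Hu (orange). Points are libraries, lines join the means of a time point, and grey marks ZT 12 to 24. Liver and muscle levels swing widely, with Per2 means from 7.86 to 206 CPM in Mu liver, whereas Per2 stays between 17.3 and 44.0 CPM in ARC and SCN.

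Per2 had the widest fitted swing among the members in Mu liver and Mu muscle, with a fold from trough to peak of 28.2 and 28.4, and in Hu livers it peaked earlier and at a lower level. Between the highest and the lowest mean of a time point the fold in Mu liver was 26.2 for Per2, 44.5 for Per3 and 41.0 for Per1. Its protein is a limiting component of the repressor complex, and its gene answers to feeding and temperature signals as well as to the clock. In Mu livers Per2 stood at 6.42 and 9.30 CPM at ZT 2, 17.4 and 10.3 CPM at ZT 6, 48.3 and 78.2 CPM at ZT 10, 220.4 and 192 CPM at ZT 14, 157 and 212 CPM at ZT 18, and 84.7 and 57.6 CPM at ZT 22. In Hu livers it stood at 9.85, 6.77 and 5.33 CPM at ZT 2, 24.4, 10.6 and 20.5 CPM at ZT 6, 60.3 and 72.7 CPM at ZT 10, 68.8 and 44.1 CPM at ZT 14, 34.6, 41.2 and 52.0 CPM at ZT 18, and 10.6 and 21.9 CPM at ZT 22. The arms overlapped at ZT 2, 6 and 10, and every Hu liver lay below every Mu liver at ZT 14, 18 and 22. The mean over libraries at these 3 times was 0.274, 0.231 and 0.228 of the Mu mean. Separation of the arms at a time, here and below, rests on few libraries. The share of all genes that separate in this way was not counted, so it describes the values of the members only.

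The fitted Per2 peak in liver was at ZT 15.9 in Mu and 13.4 in Hu, a difference of -2.49 ± 0.60 h (jackknife SE over libraries, 95% interval -3.68 to -1.31 h, Hu minus Mu). The amplitude was 2.41 ± 0.23 in Mu and 1.61 ± 0.23 in Hu, and the rhythm differed between arms at an adjusted p of 0.0180. Such a call was made for 1.28% of all genes and for 2 of the 5 members, Per2 and Cry1. The p of Per2 rose to 0.0538 without the Mu liver at ZT 6, replicate 2, and to 0.108 with time as a factor in place of the cosine. Leaving out ZT 6, 10, 14, 18 or 22 gave 0.0977, 0.0638, 0.0866, 0.0663 or 0.0588. With libraries scaled over human and mouse rows together the phase difference was -2.82 h, not called (adjusted p = 0.180). Without the shallow Hu liver at ZT 18 the phase difference was -2.65 h (adjusted p = 0.0120).

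Cry1, the cryptochrome with the later RNA peak, had a smaller amplitude in Hu livers at a peak time that did not differ beyond its error. In Mu livers it stood at 16.004 and 24.3 CPM at ZT 2, 6.37 and 9.31 CPM at ZT 6, 8.23 and 10.95 CPM at ZT 10, 48.6 and 39.0 CPM at ZT 14, 87.8 and 71.1 CPM at ZT 18, and 90.2 and 72.1 CPM at ZT 22. In Hu livers it stood at 17.9, 23.3 and 16.8 CPM at ZT 2, 8.81, 14.6 and 14.5 CPM at ZT 6, 16.4 and 14.2 CPM at ZT 10, 39.0 and 21.6 CPM at ZT 14, 34.4, 38.4 and 27.6 CPM at ZT 18, and 33.6 and 37.1 CPM at ZT 22. Hu livers thus lay above Mu livers at ZT 10 and below them at ZT 18 and 22, their ranges met at 39.0 CPM at ZT 14, and the arms overlapped at ZT 2 and 6. The amplitude was 1.91 ± 0.15 in Mu and 0.78 ± 0.11 in Hu, a log2 ratio of -1.29 ± 0.23, which corresponds to a fitted fold from trough to peak of 14.1 in Mu and 2.96 in Hu. Its peak was at ZT 19.1 in Mu and 18.8 in Hu, a difference of -0.34 ± 0.83 h (95% interval -1.97 to 1.29 h). The rhythm differed between arms at an adjusted p of 0.00622, and at 0.00652 without the shallow Hu liver. Time as a factor gave 0.112, and leaving out ZT 10 or ZT 22 gave 0.0563 or 0.0654. The small phase difference turned to 1.99 h with libraries scaled over human and mouse rows together, where the rhythm difference was not called (adjusted p = 0.333).

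Per1 and Per3 had lower troughs and higher peaks in Mu than in Hu livers. Per1 responds to glucocorticoids and cAMP, and Per3 is the period gene with the least effect on the clock when deleted. Per1 averaged 2.60 CPM at ZT 2, 11.2 CPM at ZT 6, 106.5 CPM at ZT 10, 48.6 CPM at ZT 14, 20.6 CPM at ZT 18 and 14.9 CPM at ZT 22 in Mu livers. In Hu livers it averaged 11.6, 34.3, 53.6, 61.9, 27.9 and 18.1 CPM at the same times. At ZT 2 the Mu livers stood at 2.46 and 2.74 CPM and the Hu livers at 13.5, 12.7 and 8.62 CPM, without overlap. Per3 averaged 2.52 CPM at ZT 2, 14.9 CPM at ZT 6, 112 CPM at ZT 10, 64.6 CPM at ZT 14, 30.4 CPM at ZT 18 and 10.8 CPM at ZT 22 in Mu livers. In Hu livers it averaged 6.08, 22.6, 49.9, 38.2, 17.8 and 11.03 CPM. For both genes Hu livers lay above Mu livers at ZT 2 and below them at ZT 10, without overlap. Per1 was also higher in all Hu livers at ZT 6 and 22, and its arms overlapped at ZT 14 and 18. Per3 was also lower in all Hu livers at ZT 14 and 18, and its arms overlapped at ZT 6 and 22. The intervals of the phase differences included 0, at -0.95 ± 0.99 h (-2.90 to 0.996 h) for Per1 and -1.03 ± 0.72 h (-2.43 to 0.37 h) for Per3. The log2 ratio of amplitudes was -0.80 ± 0.42 (-1.62 to 0.02) for Per1 and -0.74 ± 0.36 (-1.45 to -0.02) for Per3. Neither rhythm differed between arms at the threshold, with adjusted p-values of 0.308 and 0.176. The rhythm of Per3 in Hu livers had an adjusted p of 0.0148, which became 0.0763 with the share of human counts as a covariate and rose to at most 0.0675 without the Hu livers at ZT 10, replicate 2, or at ZT 2, replicate 1 or 3. That of Per1 had an adjusted p of 0.0941, but 0.0440 without the Hu liver at ZT 2, replicate 2, 0.0325 with the arm fitted alone, 0.0163 with time as a factor and 0.00821 by DESeq2.

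Cry2, the steadier cryptochrome, varied less over the day in liver than the other members. Its means of a time point ran from 45.9 CPM at ZT 2 to 87.8 CPM at ZT 10 in Mu livers. In Hu livers they ran from 37.1 CPM at ZT 2 to 57.5 CPM at ZT 14. Every Hu liver lay below every Mu liver at ZT 2, 10, 18 and 22, and the arms overlapped at ZT 6 and 14. It ranged from 43.9 to 107 CPM in Mu livers (median 68.1) and from 21.1 to 70.4 CPM in Hu livers (median 47.9). The lowest value was that of the shallow Hu liver, with 293 counts. The amplitude was 0.43 ± 0.11 in Mu (adjusted p = 0.119) and 0.11 ± 0.17 in Hu (adjusted p = 0.879), so its Hu peak time is not determined. Without the shallow Hu liver the Mu rhythm passed the threshold (adjusted p = 0.0353), as it did with the Mu arm fitted alone (0.0255).

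**Figure D2:**
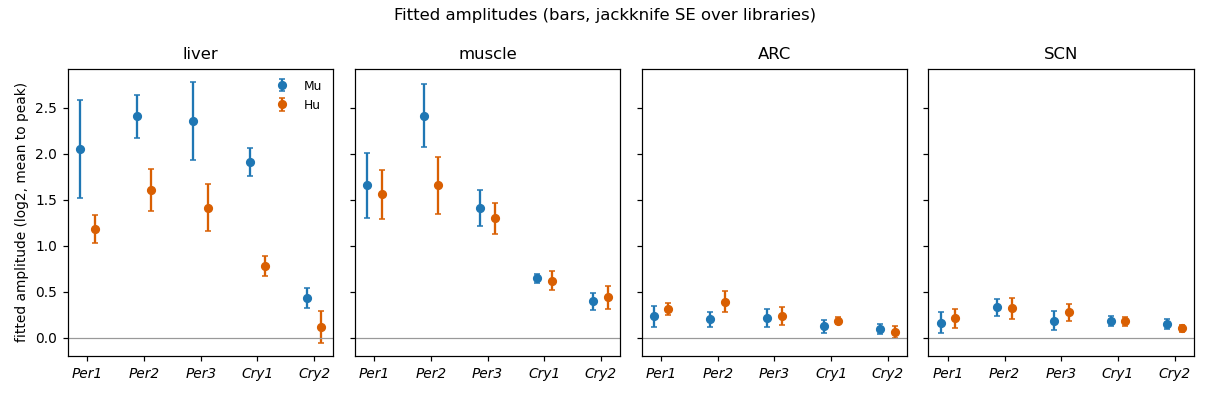
Fitted amplitude (log2, mean to peak) of each gene in each tissue, Mu blue and Hu orange, with jackknife SE over libraries. In liver all 5 Hu points lie below their Mu points, with Cry1 at 1.91 and 0.78, whereas in muscle only Per2 shows a wide gap, at 2.41 and 1.65, and ARC and SCN amplitudes stay at or under 0.39.

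The mean level over the day was compared between the livers next. Per2 was lower in Hu livers by a log2 difference of -0.99 (95% interval -1.43 to -0.54, adjusted p = 4.595e-05), Cry2 by -0.49 (-0.80 to -0.18, adjusted p = 0.00282) and Cry1 by -0.30 (-0.58 to -0.03, adjusted p = 0.0232), all by TMM scaling (trimmed mean of M values, which sets library sizes) of the mouse rows. With TMM over human and mouse rows together the signs turned, with Cry2 called higher in Hu at 0.87 (0.00450) and Cry1 at 0.98 (0.000246), and Per2 at 0.30 not called (0.279). Per1, at 0.42 (adjusted p = 0.139), and Per3, at -0.25 (adjusted p = 0.314), did not pass by mouse rows. Over all rows both were called higher, Per1 at 1.79 (2.994e-05) and Per3 at 1.05 (0.00172). Under the plain total of all rows Per3 was called lower at -1.03 (0.000753), with Per1 at -0.30 not called (0.361). A different level was found for 79.5% of all genes, 42.5% higher and 37% lower in Hu, so the 3 of 5 members are a smaller share than that of all genes. The scaling over all rows moved the median of all genes from 0.07 to 1.34, and the plain total of all rows, an alternative chosen after seeing the data, moved it to -0.70. Relative to that median the members kept their order and sign, with Per2 at -1.05 under the scaling by mouse rows, -1.04 under TMM over all rows and -1.04 under the plain total, and Cry1 at -0.37, -0.36 and -0.35. A scaling shifts all genes of a library by about the same amount, and subtracting the median removes that shift. The kept order is therefore not a test of the levels. The Cry1 call was lost without the Mu liver at ZT 14, replicate 1, or at ZT 22, replicate 1 (adjusted p at most 0.0560), and without ZT 2 (0.0562) or ZT 6 (0.0811), and that of Cry2 without ZT 10 (0.0508). The Per1 difference was called without the Mu liver at ZT 10, replicate 2, or at ZT 22, replicate 2 (adjusted p at least 0.0282), and without ZT 10 (0.00220) or ZT 22 (0.00123).

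Markers of liver cells other than hepatocytes were higher in the mouse RNA of Hu livers. The summed level of 4 stellate cell markers ranged from 497 to 7376 CPM in Hu livers and from 248 to 442 CPM in Mu livers. That of 4 markers of sinusoidal endothelium ranged from 248 to 2409 CPM and from 198 to 237 CPM, and that of 4 Kupffer cell markers from 493 to 3411 CPM and from 354 to 627 CPM. All 4 markers of each list were detected in both arms. Hepatocyte markers had a median sum of 65580 CPM in Hu and 80275 CPM in Mu livers, so they stayed the most abundant of these lists in mouse RNA. The human share also varied with the time of sampling, from 66.3 to 81.3% at ZT 10 and 14 and from 15.9 to 73.9% at ZT 2. The part of the marker differences in the lower amplitudes and levels was not tested. The human share was tried as a covariate in the rhythm tests only. With it Per2 and Cry1 were still called for a different rhythm between arms, and the Per3 rhythm in Hu livers was not called (adjusted p = 0.0763). Its part in the levels was not tested. Fewer cells of a type and less RNA per cell cannot be told apart in bulk libraries. The grafted hepatocytes were human in Hu livers and murine in Mu livers, so mouse rows can hold grafted hepatocytes only in Mu livers. Each comparison of the livers therefore sets mouse cells of different origin side by side. Arm and origin of the cells cannot be told apart.

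In skeletal muscle, which received no graft, the same genes were compared to see whether timing differed outside the repopulated organ. All 5 peaks were earlier in Hu, by 1.71 to 3.22 h, with amplitudes close to those of Mu except for Per2, although edgeR's test of a different rhythm passed for none. In Mu muscle Per2 stood at 0.743 and 1.44 CPM at ZT 2, 5.51 and 4.31 CPM at ZT 6, 32.4 and 29.4 CPM at ZT 10, 36.0 and 36.5 CPM at ZT 14, 34.1 and 18.99 CPM at ZT 18, and 5.73 and 6.78 CPM at ZT 22. In Hu muscle it stood at 11.2, 2.39 and 4.21 CPM at ZT 2, 21.5, 19.4 and 33.8 CPM at ZT 6, 31.0 and 42.8 CPM at ZT 10, 28.9 and 20.0 CPM at ZT 14, 9.37, 5.96 and 23.7 CPM at ZT 18, and 3.33 and 3.77 CPM at ZT 22. Every Hu library lay above every Mu library at ZT 2 and 6, and below at ZT 14 and 22, while the arms overlapped at ZT 10 and 18.

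Per3 showed a like course. In Mu muscle it stood at 4.82 and 7.74 CPM at ZT 2, 12.8 and 18.2 CPM at ZT 6, 49.5 and 56.8 CPM at ZT 10, 30.9 and 32.3 CPM at ZT 14, 14.3 and 13.1 CPM at ZT 18, and 8.98 and 9.35 CPM at ZT 22. In Hu muscle it stood at 20.0, 12.3 and 16.7 CPM at ZT 2, 33.6, 46.0 and 57.0 CPM at ZT 6, 40.3 and 41.2 CPM at ZT 10, 28.9 and 12.3 CPM at ZT 14, 12.4, 8.10 and 13.97 CPM at ZT 18, and 9.40 and 5.32 CPM at ZT 22. Hu libraries were higher at ZT 2 and 6 and lower at ZT 10 and 14 without overlap, so that the highest mean was at ZT 10 in Mu and at ZT 6 in Hu.

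Cry1 in Mu muscle stood at 19.6 and 23.1 CPM at ZT 2, 17.2 and 16.4 CPM at ZT 6, 16.03 and 15.5 CPM at ZT 10, 24.5 and 23.3 CPM at ZT 14, 37.8 and 32.7 CPM at ZT 18, and 36.9 and 33.5 CPM at ZT 22. In Hu muscle it stood at 14.9, 15.5 and 12.5 CPM at ZT 2, 13.5, 13.9 and 16.2 CPM at ZT 6, 22.5 and 24.3 CPM at ZT 10, 24.2 and 21.6 CPM at ZT 14, 26.98, 40.9 and 36.1 CPM at ZT 18, and 16.2 and 38.0 CPM at ZT 22. Hu libraries were lower at ZT 2 and 6 and higher at ZT 10 without overlap, and the arms overlapped from ZT 14 on. Cry2 ranged from 25.2 to 55.6 CPM in Mu muscle (median 36.7) and from 24.6 to 65.0 CPM in Hu muscle (median 41.8), and the arms were apart only at ZT 6, with Hu higher.

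**Figure D3:**
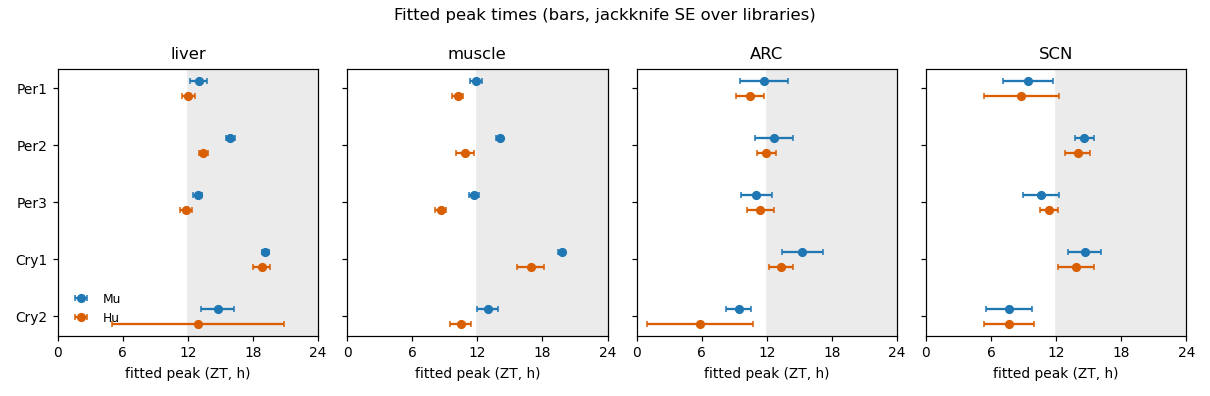
Fitted peak time (ZT in hours) of each gene in each tissue, Mu blue and Hu orange, with jackknife SE over libraries; grey marks ZT 12 to 24. In muscle all 5 Hu points lie to the left of the Mu points, by 1.71 to 3.22 h, in liver the difference of Per2, 2.49 h, is the widest among the genes with a rhythm, and the wide bar of Cry2 in Hu liver goes with an amplitude of 0.11.

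The Per2 peak in muscle was at ZT 14.1 in Mu and at 10.8 in Hu, a difference of -3.22 ± 0.87 h (95% interval -4.93 to -1.51 h), and the Per3 peak at ZT 11.7 and 8.61, a difference of -3.12 ± 0.71 h (-4.50 to -1.74 h). Cry1 peaked at ZT 19.8 and 16.9 (-2.84 ± 1.29 h, -5.37 to -0.31 h), Per1 at ZT 11.9 and 10.2 (-1.71 ± 0.75 h, -3.18 to -0.25 h) and Cry2 at ZT 12.9 and 10.5 (-2.47 ± 1.38 h, -5.17 to 0.23 h). The interval of Cry2 alone includes 0. The rhythm test between arms, which judges timing and amplitude together and is adjusted over all genes, passed for none of the 5, where it passed for 0.0704% of genes. Its adjusted p was 0.107 for Per2, 0.129 for Per3, 0.305 for Cry1, 0.434 for Per1 and 0.476 for Cry2, and at an unadjusted p under 0.05 it passed for Per2, Per3 and Cry1. DESeq2 called Per2 (adjusted p = 0.00113) and Per3 (adjusted p = 0.00725). The edgeR value for Per2 was as low as 0.0147 without the Hu muscle at ZT 18, replicate 3, or at ZT 2, replicate 2, the Hu libraries with the highest value at ZT 18 and the lowest at ZT 2.

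Amplitudes in muscle were 1.66 ± 0.35 and 1.56 ± 0.27 for Per1 in Mu and Hu, 1.41 ± 0.19 and 1.297 ± 0.17 for Per3, 0.64 ± 0.05 and 0.62 ± 0.11 for Cry1, and 0.40 ± 0.09 and 0.44 ± 0.12 for Cry2. Each pair differed by less than its error. For Per2 they were 2.41 ± 0.34 and 1.65 ± 0.31, a log2 ratio of -0.55 ± 0.33 whose interval of -1.20 to 0.11 includes 0. The Cry2 rhythm lay close to the threshold in Mu (adjusted p = 0.0460) and was lost in 17 of 27 fits without 1 library, in which the adjusted p reached 0.112, and without any 1 of the 6 times (0.0575 to 0.170), and with time as a factor (0.189). In Hu muscle its adjusted p was 0.0207, and it was 0.108 with the arm fitted alone, 0.0882 with time as a factor and 0.0538 to 0.0825 without ZT 2, 6, 14, 18 or 22. Without ZT 18 that of Cry1 in Hu muscle was 0.0549.

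Per1 was the 1 member of 5 called for a different mean level between muscles, where 26.9% of genes were, 13.5% higher and 13.3% lower in Hu. In Mu muscle it stood at 3.20 and 6.30 CPM at ZT 2, 27.1 and 23.8 CPM at ZT 6, 103 and 61.7 CPM at ZT 10, 30.0 and 64.4 CPM at ZT 14, 14.9 and 23.6 CPM at ZT 18, and 11.6 and 13.98 CPM at ZT 22. In Hu muscle it stood at 29.1, 14.6 and 22.1 CPM at ZT 2, 64.3, 70.6 and 71.9 CPM at ZT 6, 64.7 and 71.2 CPM at ZT 10, 77.2 and 86.1 CPM at ZT 14, 39.0, 11.51 and 20.1 CPM at ZT 18, and 12.6 and 6.52 CPM at ZT 22. Hu libraries lay above all Mu libraries at ZT 2, 6 and 14, and the arms overlapped at the other times. The log2 difference over the day was 0.66 (95% interval 0.13 to 1.19, adjusted p = 0.0372). The call was lost in 12 of 27 fits without 1 library, in which the adjusted p reached 0.0708, and without ZT 2, 6, 14 or 18 (0.191, 0.181, 0.244 or 0.157). It was also lost with the replicate number as a block (0.0726) and with replicate numbers 1 and 2 only (0.0697). The other members differed by -0.11 to 0.44, with adjusted p-values of 0.208 or more. The summed level of 4 fat markers ranged from 39.6 to 792 CPM in Hu muscle and from 3.53 to 632 CPM in Mu muscle, and its part in the Per1 difference was not tested.

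In the ARC and the SCN the repressors had small amplitudes, and none of their rhythms passed the adjusted threshold. Per2 in Mu ARC ranged from 20.99 to 33.9 CPM (median 25.4) and in Hu ARC from 17.3 to 38.6 CPM (median 26.7). In Mu SCN it ranged from 23.5 to 44.0 CPM (median 32.8) and in Hu SCN from 19.8 to 41.5 CPM (median 33.1). The arms overlapped over nearly their whole range. Amplitudes of the 5 genes lay between 0.06 and 0.39 in ARC and between 0.10 and 0.33 in SCN. The widest fitted folds from trough to peak were 1.71 in Hu ARC and 1.57 in Mu SCN, both of Per2. At an unadjusted p under 0.05, rhythm passed for 3 of 5 members in Mu ARC and 4 of 5 in Hu ARC, where 2188 and 885 of 15079 genes did, and for 4 of 5 in Mu SCN and 3 of 5 in Hu SCN, where 1747 and 828 of 15006 did. The lowest adjusted p of Hu ARC and of Mu SCN was that of Per2, with adjusted p-values of 0.133 in Hu ARC and 0.130 in Mu SCN by edgeR, while DESeq2 called both (0.00282 and 0.0161). Without ZT 2, an alternative chosen after seeing the data, Per2 and Per3 were called in Mu SCN (adjusted p = 0.0194 and 0.0386), and Per2 was called without the Mu SCN library at ZT 2, replicate 2 (0.0487). Cry1 was called in Mu ARC without ZT 18 (adjusted p = 0.0487). None of the 5 differed between arms in rhythm or level in either region, with mean level differences of at most 0.09 in size. For rhythm the call was made for 0% of genes in both regions, with 269 genes in ARC and 210 in SCN at an unadjusted p under 0.05, and DESeq2 called none of the 5 either. For level it was made for 0.00663% of genes in ARC and 0% in SCN, with 640 and 325 genes at an unadjusted p under 0.05. Phase differences had intervals of several hours, such as -4.53 to 3.14 h for Per2 in ARC and -3.54 to 2.27 h in SCN. Both include the difference of -3.22 h found for Per2 in muscle, so these libraries do not show whether such a difference is present.

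Tissues were then compared in 1 fit of muscle, ARC and SCN, which share a table. All libraries were taken as independent in this fit, because the labels used do not tie those of 1 mouse. Whether tissues of the same mouse vary together was not tested. In Mu the rhythm differed between muscle and ARC for Per1, Per2, Per3 and Cry1, 4 of 5 against 2.55% of 15715 genes, with adjusted p-values from 1.078e-06 for Per2 to 0.00507 for Cry1, and 0.0933 for Cry2, which DESeq2 called (0.0483). Between muscle and SCN it differed for all 5, against 4.65% of genes, from 6.312e-06 for Per2 to 0.0381 for Cry2. Of the 71 libraries in this fit 36 were left out in turn, namely 1 in each group, replicate 1 where the columns carry a number. The Cry2 call was lost in 6 of these 36 fits, those without Mu muscle at ZT 2, 6 or 10 or Mu SCN at ZT 2, 14 or 18 (adjusted p up to 0.0851). Between SCN and ARC it differed for none of the 5 and for 0% of genes, with 448 genes at an unadjusted p under 0.05.

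The effect of the arm on rhythm was itself compared between tissues. This test compares cosine and sine terms on the log2 scale, which grow with the amplitude. The Per2 amplitudes in Mu and Hu were 2.41 and 1.65 in muscle, 0.20 and 0.39 in ARC, and 0.33 and 0.32 in SCN. The same shift in hours would give smaller terms in ARC and SCN, so the test cannot tell whether the shift in hours differed. For Per2 it differed between muscle and ARC (adjusted p = 0.0423) and between muscle and SCN (adjusted p = 0.0455), and for Per3 between muscle and SCN (adjusted p = 0.0486). These are 1 of 5 members against 0.159% of genes and 2 of 5 against 0.172%. For Per3 between muscle and ARC the adjusted p was 0.0614, and the other members lay at 0.440 or above. All 3 calls lie close to the threshold. Of the same 36 fits, which do not cover the remaining libraries, 10 lost Per2 between muscle and ARC (up to 0.0666), 26 lost it between muscle and SCN (up to 0.0758) and 28 lost Per3 between muscle and SCN (up to 0.0760). Liver is in another table and was set beside these without a test.

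Levels were ordered per length, in CPM per kb of exon, with the spread over all times and libraries. In Mu SCN Cry2 was the most abundant member, at 20.3 ± 2.39 CPM per kb (SD, n = 12), followed by Per1 at 10.7 ± 1.87, Cry1 at 7.10 ± 0.87, Per3 at 5.99 ± 0.90 and Per2 at 5.64 ± 1.14. Per3 and Per2 lay within their SDs of each other. In Mu ARC the order was Cry2 at 17.4 ± 1.37, Cry1 at 8.84 ± 0.99, Per1 at 8.52 ± 1.78, Per3 at 5.51 ± 0.90 and Per2 at 4.41 ± 0.68 CPM per kb, with Cry1 and Per1 within their SDs of each other. In Mu liver Per2 led, at 15.6 ± 14.1, before Cry1 at 12.1 ± 9.73, Cry2 at 10.6 ± 2.99, Per1 at 6.05 ± 6.73 and Per3 at 4.08 ± 4.39 CPM per kb, and the daily swing made all spreads overlap. In Mu muscle Cry1 stood at 7.40 ± 2.52, Cry2 at 6.24 ± 1.53, Per1 at 5.68 ± 5.28, Per2 at 3.02 ± 2.55 and Per3 at 2.25 ± 1.78 CPM per kb. In Hu SCN the order was that of Mu SCN, and in Hu liver Cry2 (7.38 ± 2.00) and Cry1 (7.15 ± 3.08) stood before Per1 (5.78 ± 3.44), Per2 (5.51 ± 3.95) and Per3 (2.34 ± 1.66).

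Between the brain regions of Mu, Cry1 was lower in SCN than in ARC by a log2 difference of -0.31 ± 0.08 (SE, adjusted p = 0.00144) and Cry2 higher by 0.23 ± 0.07 (adjusted p = 0.00797). Per1, at 0.34 (adjusted p = 0.0943), Per2, at 0.35 (0.0959), and Per3, at 0.13 (0.378), did not pass. That is 2 of 5, where 50.2% of genes differed, 25.1% higher and 25.1% lower in SCN. Against ARC, muscle had Cry1 higher by 0.72 and Per3 and Cry2 lower, at -0.59 and -0.46 on the log2 scale in the shared fit, in which 91.6% of genes differed, 43.3% higher and 48.3% lower in muscle. Against SCN, it had Cry1 higher by 1.03 and Per2, Per3 and Cry2 lower, at -0.58, -0.73 and -0.69, where 91.8% of genes differed, 43.7% higher and 48.1% lower in muscle. The sizes of these differences between muscle and brain, and the direction for Cry1 against ARC, depend on the scaling. The mean CPM of Cry1 scaled within each tissue was 24.7 in Mu muscle, 29.5 in Mu ARC and 23.7 in Mu SCN. By that scaling Cry1 was lower in muscle than in ARC and close to SCN. In the same order Cry2 stood at 39.4, 110 and 128 CPM and Per3 at 21.6, 52.9 and 57.6 CPM, wider gaps than in the shared fit.

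The interval between the repressors and the other genes of the loop was taken from the same fits. In Mu liver Per2 peaked 8.91 ± 0.44 h after Nr1d1 and in Hu liver 6.73 ± 0.50 h after it, a change of -2.18 ± 0.67 h (jackknife SE). From Arntl to Per2 it went from 17.7 ± 0.68 to 14.8 ± 0.46 h, a change of -2.87 ± 0.81 h, and from Per2 to Cry1 it went from 3.23 ± 0.41 to 5.39 ± 0.85 h, a change of 2.16 ± 0.94 h. The delay from Nr1d1 to Cry1 was 12.1 ± 0.45 h in Mu and 12.1 ± 0.72 h in Hu. From Nr1d1 to Per1 it was 5.98 ± 0.89 and 5.34 ± 0.75 h, and to Per3 5.89 ± 0.58 and 5.18 ± 0.78 h, changes smaller than their errors. From Per1 to Per2 the interval was 2.93 ± 0.78 h in Mu and 1.39 ± 0.72 h in Hu, a change of -1.54 ± 1.07 h, and from Per3 to Per2 it was 3.02 ± 0.45 and 1.55 ± 0.53 h, a change of -1.46 ± 0.69 h. The intervals that include Per2 share the same Per2 peak, so they are not separate results. In Hu livers the rhythms of Arntl (edgeR adjusted p = 0.119) and Per1 (0.0941) were not called, which limits the intervals from them.

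In muscle the delays from Nr1d1 to Per2, Per3 and Cry1 changed by less than their errors. Per2 followed Nr1d1 by 8.82 ± 0.42 h in Mu and 9.18 ± 0.97 h in Hu, a change of 0.36 ± 1.06 h. Per3 followed it by 6.49 ± 0.52 and 6.95 ± 0.999 h, and Cry1 by 14.5 ± 0.45 and 15.3 ± 1.07 h. The delay from Nr1d1 to Per1 was 6.65 ± 0.59 and 8.52 ± 1.19 h, a change of 1.87 ± 1.33 h. From Arntl the changes were 0.92 ± 1.34 h for Per2, 2.43 ± 1.37 h for Per1, 1.02 ± 0.78 h for Per3, 1.2999 ± 1.71 h for Cry1 and 1.68 ± 1.58 h for Cry2. Whether the change of a delay differed between liver and muscle was not tested.

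**Figure D4:**
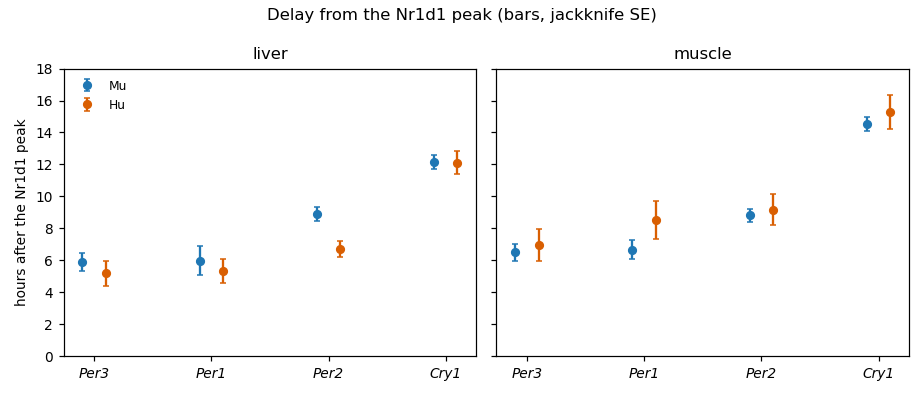
Hours from the fitted Nr1d1 peak to the peak of Per3, Per1, Per2 and Cry1 in liver and muscle, Mu blue and Hu orange, with jackknife SE over libraries. In liver Per2 drops from 8.91 to 6.73 h while Cry1 stays at 12.1 h, and in muscle Mu and Hu points lie within about 1 SE of each other except for Per1.

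The partners of the repressors were described by 3 lists. Of 15 clock partners, among them the activators and the REV-ERB and ROR receptors, 14 were tested in liver and 14 were rhythmic in Mu livers, with a median amplitude of 1.69, against 0.27 for all genes. Only Nr1d1, Dbp and Nr1d2 were rhythmic in Hu livers, where the list's median amplitude was 0.79. A different rhythm was found for 4, namely Nr1d2 (amplitude 1.83 in Mu and 0.83 in Hu, adjusted p = 0.0217), Nr1d1 (3.65 and 2.09, 0.0240), Npas2 (3.63 and 1.44, 0.0445) and Bhlhe40 (1.10 and 0.48, 0.0449), the last named after its values were seen. In the same order their phase differences in liver were -1.14, -0.31, -0.70 and -4.03 h, so the peak of Bhlhe40 was also earlier in Hu. In muscle 10 of 14 were rhythmic in Mu and 11 in Hu, all 14 peaked earlier in Hu, with a median phase difference of -4.03 h, and 2 had a different rhythm, Nr1d2 (-4.55 h, adjusted p = 0.0198) and Nr1d1 (-3.58 h, 0.0396). In ARC 7 of 15 were rhythmic in Mu and 3 in Hu, and in SCN 2 and 0, with no different rhythm in either. Arntl and Nr1d1 passed in Mu ARC (adjusted p = 0.0135 and 0.00567), so partners were called where no repressor was.

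Among 24 genes of PER and CRY turnover and of their complexes, such as the casein kinases and the ligase part Btrc, 7 were rhythmic in Mu livers (17.3% of all genes) and 0 in Hu livers (0.167%), with median amplitudes of 0.17 and 0.10, beside 0.27 and 0.20 for all genes. Only Usp2, a ubiquitin protease that acts on PER1 and CRY1, had a different rhythm in liver, with amplitudes of 2.91 and 0.78 (adjusted p = 0.0243), and only Usp2 in muscle, where its peak moved from ZT 13.2 to 8.71 (adjusted p = 0.0319). In level 16 of the 24 differed between livers, 6 higher and 10 lower in Hu, and 2 between muscles, 1 in each direction, where 79.5% and 26.9% of all genes did. Under the same tests 11 of 14 clock partners differed between livers, 2 higher and 9 lower, and 1 between muscles. In ARC and SCN 1 of 24 was rhythmic in Mu and 0 in Hu.

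Among 10 genes of inputs to the Per genes, which carry cAMP, glucocorticoid and heat signals, 5 were rhythmic in Mu livers and 1 in Hu livers. A different rhythm was found in liver for Fkbp5 and Tsc22d3, both induced by glucocorticoids. Fkbp5 had an amplitude of 1.44 in Mu and 0.45 in Hu (adjusted p = 0.0465). Tsc22d3 had amplitudes of 1.03 and 0.98 and its peak at ZT 16.7 in Mu against 13.7 in Hu (adjusted p = 0.0498), a difference of -3.00 h beside that of -2.49 h for Per2. In muscle 5 of the 10 were rhythmic in Mu and 4 in Hu, and 0 had a different rhythm. Tsc22d3 peaked there at ZT 15.1 and 13.6, and Fkbp5 was higher in Hu muscle by 0.74 on the log2 scale (adjusted p = 0.0166). In ARC 3 were rhythmic in Mu and 1 in Hu, and in SCN none. In level 9 of the 10 differed between livers, 6 higher and 3 lower in Hu, where 79.5% of all genes did.

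Genes whose course was most like that of each member were sought by Pearson correlation over 48 means of tissue, arm and time, centred within tissue and arm, among 12820 genes. These means share libraries between genes, and liver and muscle supply most of the variation, so the values are descriptive. Per1 was most like Per3 (r = 0.94), Tef (0.89) and Tob2 (0.87), and Per3 was most like Tef (0.96), Per1 (0.94) and Ciart (0.92). Tef encodes a transcription factor that binds the D-box and Ciart a repressor of the CLOCK and BMAL1 pair. Per2 was most like Maco1 (0.87), Rev1 (0.85) and Wee1 (0.82), the last a kinase that restrains entry into mitosis. Cry1 was most like Desi2 (0.85), Zbtb21 (0.83) and Utp14b (0.82), and Cry2 like Per1 (0.80), Maco1 (0.79) and Hlf (0.78), another factor that binds the D-box. Between members, Cry1 stood apart, with r of -0.12 to Per1, -0.16 to Per3, 0.14 to Cry2 and 0.36 to Per2, whereas the other 4 correlated at 0.71 to 0.94.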

How the data were processed

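RNA sequencing measured 98 libraries of 4 tissues. Per the labels' protocols, RNA was extracted with RNeasy and libraries kept strand; the submitters' processing notes name STAR and the builds GRCm38, mm10, GRCh38, hg38 and hg19 without roles, and the counting program is not given in the sources used here. The authors deposited raw counts per gene, not normalized, in a table of liver (human and mouse rows) and a table of the other tissues. The Hu columns of ARC and SCN at ZT 22 carry another replicate number than the labels and were used by group only. Coordinates and exon lengths come from GENCODE M21.

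Mouse rows were fitted per tissue with edgeR 4.0.16 in R 4.3.3: filterByExpr by arm, TMM (trimmed mean of M values) scaling, terms for the arm and, within each arm, for a 24 h wave as cosine and sine, quasi-likelihood F tests, and Benjamini-Hochberg adjustment over all genes tested (threshold 0.05). Muscle, ARC and SCN were also fitted together. CPM are scaled by TMM within each tissue, except marker sums, which use plain totals. Phase differences are Hu minus Mu, with SEs from a jackknife over libraries and normal 95% intervals. The fit was tested on counts simulated from the muscle libraries only, with amplitudes above those found in ARC and SCN. That test does not cover ARC, SCN or liver.

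The 5 genes, the lists and the tests were chosen with earlier results of these data known. Named besides are the 3 genes most like each member and, per list and tissue, at most the 3 with the smallest p-value. DESeq2 1.42.0, other filters, scalings, covariates and left-out libraries or times were tried as alternatives. Human rows were not analysed here.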

Additional observations from a re-analysis of the deposited data

Results flagged for a closer look

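For 3 results the effect of the arm on rhythm differed between tissues by a test of that difference. They were Per2 between muscle and ARC (edgeR adjusted p = 0.0423), Per2 between muscle and SCN (0.0455) and Per3 between muscle and SCN (0.0486). In muscle the phase difference (Hu minus Mu) was -3.22 ± 0.87 h for Per2 and -3.12 ± 0.71 h for Per3, in ARC the differences were -0.70 ± 1.96 h and 0.39 ± 1.90 h, and in SCN -0.64 ± 1.48 h and 0.69 ± 1.91 h (jackknife SE). The amplitudes in ARC and SCN were 0.18 to 0.39, so a phase is weakly determined there. DESeq2 also called Per3 between muscle and ARC (adjusted p = 0.0121), which edgeR did not (0.0614). Of 36 fits without 1 of the 71 libraries, 10 lost Per2 between muscle and ARC, 26 lost it between muscle and SCN and 28 lost Per3 between muscle and SCN, and the replicate block also ended this last call (0.0506).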

How the results depend on the processing

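The members called per comparison were recounted under each alternative; leaving out each time point and the plain total of all rows were chosen after seeing the data. For a different rhythm between livers, 2 members became 0 with TMM over all rows, the plain total of all rows, time as a factor, or without ZT 10 or 22, and 1 without ZT 6, 14 or 18; for Per2 alone the p lay between 0.0588 and 0.0977 without one of ZT 6, 10, 14, 18 and 22. For a different rhythm between muscles, 0 became 2 with DESeq2 and 1 with replicate numbers 1 and 2 only. For the level in muscle, 1 became 0 without ZT 2, 6, 14 or 18, with replicate numbers 1 and 2 only, or with the replicate block. For rhythm, 3 became 1 in Hu liver without ZT 2, 5 became 3 in Hu muscle without ZT 18, and 0 became 1 in Hu ARC and Mu SCN with DESeq2, 1 in Mu ARC without ZT 18 and 2 in Mu SCN without ZT 2. For the arm effect between muscle and ARC 1 became 2 with DESeq2.

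Reversed values were the liver levels under TMM over all rows, 0.98 for Cry1, 0.87 for Cry2, 1.05 for Per3 and 0.30 for Per2, and the Cry1 phase difference in liver, 1.99 h under that scaling, 2.12 h under the plain total and 0.32 h without the Hu liver at ZT 14, replicate 1, where the rhythm difference was still called. Leaving out 1 library gave -0.62 to 0.32 h for it. The cause was not tested.

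Leaving out 1 library gave 0 to 2 members for the arm effect between muscle and ARC and 0 to 2 between muscle and SCN, 0 to 1 for the level in muscle, 1 to 2 for a different rhythm in liver, 0 to 1 in muscle and 0 to 1 for rhythm in Mu SCN. In the shared fit of 3 tissues, 36 of 71 libraries were left out in turn, with the dispersion trend of the full fit.

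Libraries of both arms with the same replicate number did not correlate above 0.1 in every pair, the criterion for pairing (mean correlation 0.115 in liver, 0.0250 in muscle, 0.130 in ARC and 0.120 in SCN), so the numbers were not taken as pairs. In liver the correlations were all positive, at 0.0129 to 0.312. Where both arms held 2 libraries at a time, replicates 1 and 2 give the same correlation by construction. Both were counted in these means, so not all values are separate. With the replicate block the members called for the arm effect between muscle and SCN fell from 2 to 1 (Per3, adjusted p = 0.0506), and the Cry1 level in liver (adjusted p = 0.0613) and the Per1 level in muscle (0.0726) were no longer called.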
